A study of Mus musculus with 23 samples.

Results

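The *Mrps* genes encode proteins of the small subunit of the mitochondrial ribosome. They were taken as every row of the RNA-seq count tables whose GENCODE symbol is *Mrps* followed by a number. This gave 31 of the 37310 gene records, of which 29 are genes and 2 (*Mrps36-ps1* and *Mrps36-ps2*) carry a pseudogene suffix. ChIP-seq windows were assigned to a gene when they overlapped its promoter, from 2000 bases upstream to 500 bases downstream of the annotated start.

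All samples were E14 mouse embryonic stem cells (ESCs) grown without feeder cells, and the study asked which genes need Zbtb11, a zinc finger protein found at promoters. RNA was sequenced 48 h after treatment in 3 groups of 3 libraries. *Zbtb11* KO cells carried floxed *Zbtb11* alleles (*Zbtb11* lox/lox) and ERt2-Cre, a Cre recombinase that tamoxifen switches on, at *Rosa26*, and received 250 nM 4-hydroxytamoxifen (4OHT). The EtOH control was the same line given the ethanol carrier, and the 4OHT control was wild type at both loci (*Zbtb11* WT/WT) and received 250 nM 4OHT. The KO was therefore studied in 1 engineered line. A comparison with the 4OHT control also compares that line with wild-type cells, so effects of line and of *Zbtb11* loss cannot be told apart in it. Zbtb11 binding was measured in untreated cells, in 4 libraries with an antibody against Zbtb11 in wild-type cells and in 3 libraries with an antibody against FLAG in *Zbtb11* FLAG/FLAG cells, whose protein carries the tag.

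The libraries held 14301457 to 23876604 reads on genes, of which the *Mrps* genes took 0.095 to 0.119%. All 10 ESC markers examined were above 1 CPM (reads of a gene scaled to a common library size) in each group, and in the EtOH control their levels summed to between 4536 and 5141 CPM, with 4548 to 5382 in the KO and 5047 to 5820 in the 4OHT control. The 5 fibroblast markers summed to at most 29.6 CPM in any library, and the 6 lineage markers found to at most 22.03 CPM. Deletion of *Zbtb11* could not be followed, because no record in the annotation has its name and its transcript belongs to the record of *Rpl24*. That joint record was at 355, 373 and 386 CPM in the EtOH control and at 363, 358 and 363 CPM in the KO. Replicate 1 lay apart from the others in every group, so values are given for all 9 libraries and tests first for replicates 2 and 3.

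The small subunit of the mitochondrial ribosome binds the mRNA and reads its codons, while the large subunit joins the amino acids. Its RNA, the 12S rRNA, is transcribed inside the organelle from *mt-Rnr1*, but every protein is encoded in the nucleus and imported. Some of these proteins have bacterial relatives (for example those of *Mrps12*, *Mrps16*, *Mrps17*, *Mrps18c* and *Mrps21*), whereas others are found only in mitochondria (for example those of *Mrps27*, *Mrps31*, *Mrps34* and *Mrps35*). The names are historical: the products of *Mrps30* and *Mrps18a* are now placed in the large subunit, and that of *Mrps36* in the 2-oxoglutarate dehydrogenase complex. Promoters of such genes often carry the core motif of ETS proteins, the family to which nuclear respiratory factor 2 (NRF-2) belongs, or that of NRF-1.

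The ETS core is shown first for the promoters with the most Zbtb11 signal. It was searched as CCGGAAG on both strands, and the shorter core CCGGAA, which every CCGGAAG also holds, was searched in the same way. Each line below gives the stretch on the strand of the gene, 5′ to 3′, with the match in capitals, so that a match on the opposite strand reads CTTCCGG or TTCCGG. Not every match in these promoters is shown. *Mrps25*, another promoter with high signal, had no match within 300 bases of its start. All stretches are from mm9.
*Mrps31*, chr8:23521786-23521811, plus strand: ccgtttcctaCCGGAAtccaaaagga
*Mrps31*, chr8:23521890-23521916, plus strand: ggcgcttgtgCTTCCGGctgtgctctg
*Mrps34*, chr17:25032004-25032030, plus strand: gttcctgaagCTTCCGGacgtacccgg
*Mrps34*, chr17:25032046-25032072, plus strand: acaccggccgCTTCCGGaacgggagag
*Mrps27*, chr13:100114683-100114709, plus strand: ggtaggaccaCTTCCGGcggaggcggg
*Mrps18c*, chr5:101227612-101227638, plus strand: ggtcacgtgaCTTCCGGcccgggaagc
*Mrps21*, chr3:95675403-95675429, minus strand: gtagcttccgCTTCCGGtccgcagaga
*Mrps18b*, chr17:36053326-36053352, minus strand: cgcagtcgctCTTCCGGcaggccgtac
*Mrps16*, chr14:21212770-21212796, minus strand: tgggggcgctCTTCCGGgcttcaggct

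In *Mrps34*, *Mrps27*, *Mrps18c*, *Mrps18b* and *Mrps16* these matches began between 48 and 5 bases upstream of the start. In *Mrps21* the match began 23 bases and in *Mrps31* 88 bases downstream of it, and the shorter core of *Mrps31* began 16 bases upstream. Over 300 bases, from 250 upstream to 50 downstream of the start, CCGGAAG was present in 14 of the 29 *Mrps* genes (48.3%) and in 16.4% of all 13195 protein-coding genes tested. CCGGAA was present in 19 (65.5%), against 25.5% of all. The NRF-1 core, GCATGCGC, was present in 2 (*Mrps18b* and *Mrps28*), which is 6.90% against 5.09%. The median GC content was 58.7% in *Mrps* promoters and 60% in all, and the median number of CpG dinucleotides was 18 and 19. A match is a description of the letters and not a bound site.

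Zbtb11 signal lay at the start of most *Mrps* genes, and 8 of them had a strong window. Of the 29 genes, 16 (55.2%) had a window of the coverage table at their promoter, against 29.3% of the protein-coding genes tested. The table lists normalized read coverage, a level on the authors' scale, for 7500 windows of 1200 bases at peaks found with both antibodies. Counted from the start, with upstream positions negative, the middle of the *Mrps* windows lay between -247 and 77 bases. No *Mrps* promoter overlapped a peak that the FLAG antibody gave in cells without the tag. A window was called strong when its mean over the 4 Zbtb11 antibody libraries exceeded 308.9, which is the upper quartile plus 1.5 interquartile ranges over all windows. This held for 8 *Mrps* promoters (27.6%), against 5.98% of the protein-coding genes tested. The large-subunit family had windows at 26 (56.5%) and strong windows at 10 (21.7%) of 46 *Mrpl* genes tested. The cytosolic small-subunit family had 20 (44.4%) and 6 (13.3%) of 45 *Rps* genes. Shares of this kind were not tested against each other.

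The highest coverage was at *Mrps31*, whose product occurs only in mitochondrial ribosomes. Its window (chromosome 8, 23521203 to 23522402) had coverage of 574, 805, 537 and 1038 in the 4 Zbtb11 antibody libraries and of 711, 680 and 432 in the 3 FLAG-Zbtb11 libraries. The mean was 738 ± 232 (SD, n = 4) with the Zbtb11 antibody, rank 142 of the 7500 windows, and 608 ± 153 (SD, n = 3) with FLAG. *Mrps34*, another subunit particular to mitochondria, followed with 506, 713, 536 and 832 with the Zbtb11 antibody and 590.5, 632 and 418 with FLAG (chromosome 17, 25031421 to 25032620). Both sets of libraries ranked this window close together, at 280 and 284.

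*Mrps27*, which encodes a pentatricopeptide repeat protein, and *Mrps18c*, whose product is a relative of a bacterial subunit, had almost equal coverage. At *Mrps27* (chromosome 13, 100114040 to 100115239) the mean was 574 ± 149 (SD, n = 4) with the Zbtb11 antibody and 493 ± 147 (SD, n = 3) with FLAG. At *Mrps18c* (chromosome 5, 101227104 to 101228303) the corresponding means were 571 ± 159 and 493 ± 154. *Mrps21* was next, with 491 ± 44.0 and 422 ± 94.2 (chromosome 3, 95674803 to 95676002). At each of these 5 promoters the FLAG libraries overlapped the Zbtb11 antibody libraries, and the window was also strong by the mean of the FLAG libraries, for which the limit was 260.5.

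The other 3 strong windows were strong with the Zbtb11 antibody but not with FLAG. The 2 sets of libraries differ in antibody, tag and cell line together, which cannot be told apart. *Mrps18b* had coverage of 309, 425, 307 and 362 with the Zbtb11 antibody but of 146, 107 and 119 with FLAG (chromosome 17, 36052695 to 36053894). *Mrps25* had 268, 410, 268 and 309 against 106, 81.9 and 96.0 (chromosome 6, 92133419 to 92134618). *Mrps16* had 332, 410, 309 and 263 against 215, 224 and 170 (chromosome 14, 21212425 to 21213624). None of the FLAG values reached the lowest antibody value at these promoters. The ratio of the means was 2.84 at *Mrps18b*, 3.31 at *Mrps25* and 1.62 at *Mrps16*, ranks 299, 181 and 1205 of all windows. Such a gap was common in the whole table: the 4 antibody libraries lay above the 3 FLAG libraries in 3 of 16 *Mrps* windows and in 16.8% of all windows, and below them in 3 *Mrps* windows (*Mrps10*, *Mrps17* and *Mrps35*) and in 11.2% of all.

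The remaining 8 windows, at *Mrps23*, *Mrps35*, *Mrps18a*, *Mrps7*, *Mrps2*, *Mrps22*, *Mrps10* and *Mrps17*, had antibody means from 130 down to 33.1. The limit of 308.9 on these means set the groups, so their 2 ranges could not meet. The lowest strong window stood at 314. Single antibody libraries fell below the limit at *Mrps25*, *Mrps16* and *Mrps18b*, where the lowest values were 268, 263 and 307. CCGGAAG lay within the central 300 bases of 6 of the 8 strong *Mrps* windows, which excepts *Mrps16* and *Mrps25*, and of 4 of the other 8. The share among all strong windows was 47.8%, and among all 7500 it was 29.4%. In the plot of coverage by library, single Zbtb11 antibody libraries reached at most 142 in the other windows and at least 263 in the strong ones. The size of this step between groups set by their means was not tested. The FLAG libraries did not show it throughout. They ran from 107 to 146 at *Mrps18b* and from 81.9 to 106 at *Mrps25*, against 129 to 159 at *Mrps35*, which was not strong.

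**Figure D1:**
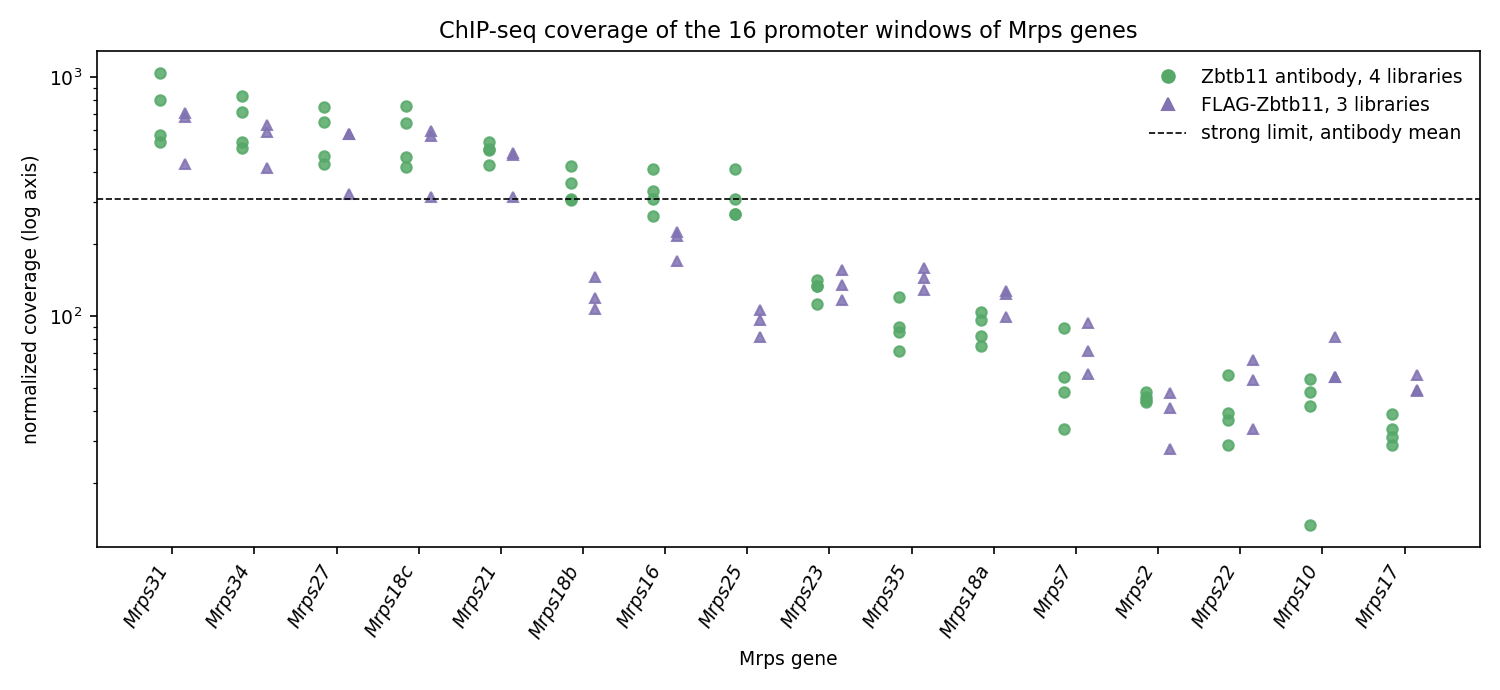
Normalized ChIP-seq coverage (log axis) of the 16 promoter windows of *Mrps* genes, ordered by their mean in the 4 Zbtb11 antibody libraries (circles), with the 3 FLAG-Zbtb11 libraries (triangles) and the limit for a strong window (dashed line). In *Mrps31* to *Mrps21* both antibodies are high, in *Mrps18b*, *Mrps16* and *Mrps25* the FLAG libraries lie lower, and from *Mrps23* on no value exceeds 159.

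The first comparison asked which *Mrps* transcripts changed within 48 h when *Zbtb11* was deleted in the same line. *Mrps31* fell to 46.0 to 47.4% of its level in the EtOH control, *Mrps34* was below the controls in every KO library, and smaller differences were seen at *Mrps27* and *Mrps18c*. These are the 4 genes with the highest promoter coverage. The other 25 genes tested lay within 0.17 of zero on the log2 scale. In bulk RNA, less RNA per cell and fewer cells of a kind cannot be told apart.

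*Mrps31* was at 34.1, 41.5 and 41.0 CPM in the EtOH control, at 16.2, 19.3 and 18.9 CPM in the KO, and at 44.1, 43.6 and 51.7 CPM in the 4OHT control. All KO libraries lay below all controls, and within the replicate numbers the KO stood at 47.4, 46.5 and 46.0% of its EtOH control. The log2 fold change was -1.11 (SE 0.10, edgeR quasi-likelihood test, adjusted p = 2.6e-05), and -1.10 (SE 0.12, adjusted p = 0.0014) with all 3 replicates. Among the *Mrps* genes its level per kilobase of exon moved from rank 10 in the EtOH control to rank 17 in the KO.

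*Mrps34* was at 7.403, 10.7 and 9.02 CPM in the EtOH control, at 3.90, 4.80 and 6.81 CPM in the KO, and at 9.06, 12.5 and 11.7 CPM in the 4OHT control. The KO libraries again lay below all controls, at 52.7, 44.7 and 75.4% of the EtOH control of the same number. The log2 fold change was -0.77 (SE 0.18), which did not pass the test across genes (edgeR, adjusted p = 0.063). It passed when the replicate number was added to the fit (log2 fold change -0.77, SE 0.16, edgeR adjusted p = 0.0072), and with DESeq2 (adjusted p = 0.034). Its counts were low, 67 to 276 reads in a library, and only 459 of its 2064 exon bases are free of exons of *Nme3* on the same strand or *Mapk8ip3* on the other.

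*Mrps27* was at 50.2, 60.1 and 62.6 CPM in the EtOH control and at 46.2, 48.6 and 52.6 CPM in the KO. The groups overlapped, and the KO stood at 92.2, 80.8 and 84.0% of the EtOH control of the same number. *Mrps18c* was at 16.7, 27.9 and 28.4 CPM against 17.5, 22.4 and 21.1 CPM, with the difference present in replicates 2 and 3 and absent in replicate 1 (log2 ratios of -0.31, -0.43 and 0.06). Neither passed the test of replicates 2 and 3 (log2 fold change -0.28, SE 0.08 and -0.37, SE 0.10, edgeR adjusted p = 0.27 and 0.15). Both passed it with the replicate number in the fit (edgeR adjusted p = 0.023 and 0.030), and neither did so in any fit that included replicate 1. In replicates 2 and 3, deviations from the group means correlated at 0.43 to 0.68 between libraries of the same number. Between those of different numbers they correlated at 0.29 to 0.53, so the ranges overlapped. The group means included the distant replicate 1, so deviations of replicates 2 and 3 tended to share a sign whatever their number. The pairing behind these 2 calls is therefore not shown by these correlations.

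In all, 1 of the 29 genes (*Mrps31*) was lower at an adjusted p under 0.05, beside 1.35% of the 14172 genes tested, and 0 were higher, beside 0.148%. With the replicate number in the fit 4 were lower (*Mrps31*, *Mrps34*, *Mrps27* and *Mrps18c*), beside 1.85%, and 0 higher, beside 0.423%. The fit of all 3 replicates called *Mrps31* alone, beside 0.843%, and with the replicate number in it *Mrps31* and *Mrps34*, beside 1.79%, with 0 higher, beside 0.46%. No gene was higher at an unadjusted p under 0.05 in edgeR either, and DESeq2 called 0 higher, whereas 4 were lower at that unadjusted p. Over the 29 genes the log2 fold changes had a median of -0.08 and 21 were negative, against a median of 0.00 over all genes tested. All 3 KO libraries lay below all 6 controls in 2 *Mrps* genes (*Mrps31* and *Mrps34*) and in 2.38% of all genes tested.

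*Mrps21*, with a coverage close to that of *Mrps18c*, was at 11.0001, 14.7 and 13.4 CPM in the EtOH control and at 11.4, 13.1 and 15.3 CPM in the KO. Its log2 fold change was 0.01 (SE 0.12, edgeR adjusted p = 0.99), and none of the 4 edgeR fits called it between these groups. The windows that were strong with the Zbtb11 antibody only gave log2 fold changes of -0.12 (SE 0.08) at *Mrps18b*, -0.06 (SE 0.08) at *Mrps16* and 0.06 (SE 0.10) at *Mrps25*, none past the test. Grouped by window, the median log2 fold change was -0.37 in the 5 genes whose window was strong with both antibodies, -0.06 in the 3 strong with the Zbtb11 antibody only, -0.08 in the 8 with another window and -0.05 in the 13 with none. Across the 16 genes with a window, log2 coverage and log2 fold change had a Pearson correlation of -0.53 and a Spearman correlation of -0.40, and of -0.44 and -0.27 without *Mrps31*. These are descriptions across genes, which share libraries and are not independent replicates.

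**Figure D2:**
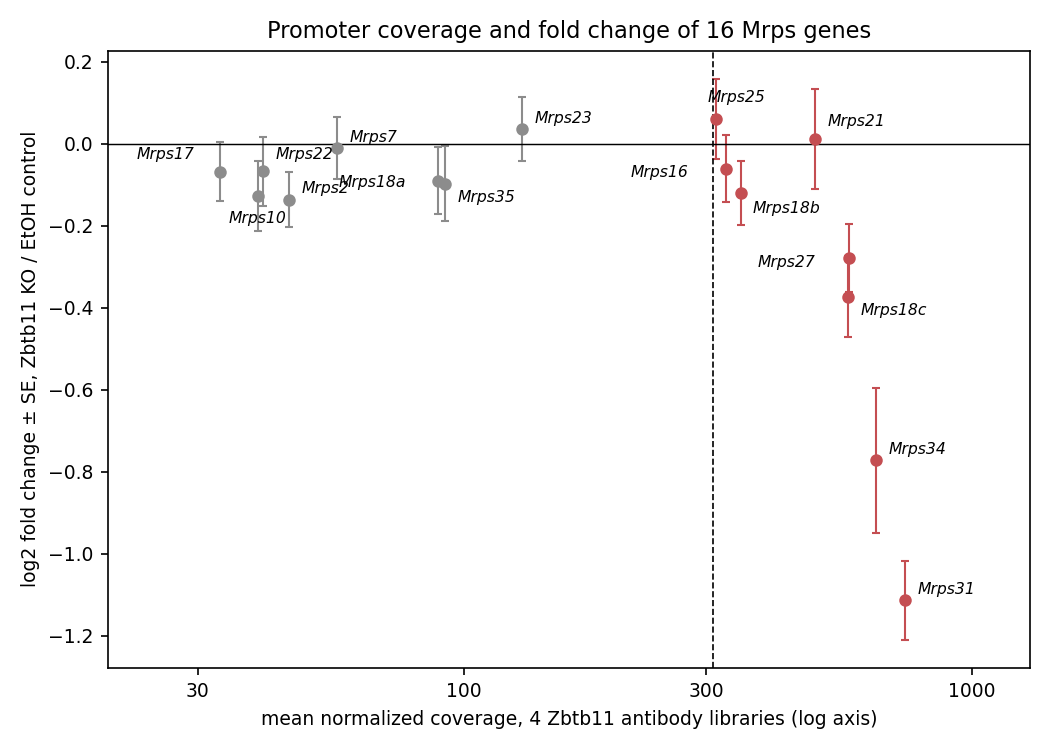
Log2 fold change of the 16 *Mrps* genes with a promoter window, *Zbtb11* KO against EtOH control in replicates 2 and 3 (error bars, SE), against mean coverage in the 4 Zbtb11 antibody libraries (log axis); red points are strong windows and the dashed line is their limit of 308.9. The 4 windows with the highest coverage (571 to 738) have the 4 lowest fold changes, and *Mrps21*, at a coverage of 491, stays at 0.01.

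Several *Mrps* genes start back to back with another gene. *Mrps18c* and *Helq*, a DNA helicase of the repair of replication forks, start 27 bases apart on opposite strands, and the 26 bases between the annotated starts hold the ETS core, shown here on the strand of *Mrps18c* with CCGGAA on the other strand in capitals.
Between *Helq* and *Mrps18c*, chr5:101227620-101227645, plus strand: gacTTCCGGcccgggaagcgcgggaa

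*Helq* was at 26.1, 27.3 and 26.5 CPM in the EtOH control, at 14.3, 14.2 and 14.7 CPM in the KO and at 25.3, 25.6 and 28.9 CPM in the 4OHT control. Its log2 fold change was -0.90 (SE 0.10, edgeR adjusted p = 0.00020), beside the -0.37 of *Mrps18c* given above. The difference between the partners was not tested. At *Mrps34* the partner was *Eme2*, which encodes a subunit of a DNA endonuclease and starts 29 bases away. *Eme2* was at 4.01, 2.99 and 2.59 CPM in the EtOH control and at 2.79, 2.42 and 2.29 CPM in the KO (log2 fold change -0.25, SE 0.21, edgeR adjusted p = 0.95), and was lower in the KO than in the 4OHT control (log2 fold change -0.75, edgeR adjusted p = 0.024), a call lost with all 3 replicates (edgeR adjusted p = 0.13). At *Mrps27* the partner *Ptcd2*, another pentatricopeptide repeat gene, starts 108 bases away and had a log2 fold change of 0.04 (SE 0.08, edgeR adjusted p = 0.98). *Ppp1r10*, 45 bases from *Mrps18b*, had -0.01 (SE 0.08), which did not pass the test. *Mrps12* and *Mrps5* had no window. Their partners *Sars2*, 171 bases away, and *Zfp661*, 128 bases away, had -0.12 (SE 0.10) and 0.25 (SE 0.15), neither past the test.

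The 4OHT control differed from the EtOH control in several *Mrps* genes, a comparison in which the drug and the cell line change together and cannot be told apart. In these genes the level in the KO was near that of the EtOH control. *Mrps35* was at 33.4, 33.6 and 41.9 CPM in the 4OHT control, at 54.9, 64.3 and 66.3 CPM in the EtOH control and at 51.3, 60.1 and 62.2 CPM in the KO. All 4OHT control libraries were below the libraries of the other groups. The log2 fold change was -0.79 (SE 0.09, edgeR adjusted p = 0.00027) and -0.77 (SE 0.13, edgeR adjusted p = 0.014) with all 3 replicates, against -0.10 (SE 0.09) for the KO over the EtOH control. *Mrps17* was at 31.1, 44.5 and 45.7 CPM in the 4OHT control and at 51.1, 56.9 and 59.4 CPM in the EtOH control (log2 fold change -0.36, SE 0.07, edgeR adjusted p = 0.0060). Its product, a relative of a bacterial subunit, was at 53.1, 53.9 and 57.1 CPM of RNA in the KO.

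The 4OHT control was also lower in *Mrps16* (log2 fold change -0.28, edgeR adjusted p = 0.038), *Mrps18b* (-0.27, 0.037), *Mrps12*, which encodes a protein of the decoding centre (-0.28, 0.042), and *Mrps26* (-0.38, 0.040). Together 6 of 29 genes were lower, beside 8.22% of all genes tested, and 0 were higher, beside 8.86%. Without adjustment, two-sided p-values under 0.05 gave 2 higher in edgeR and 1 in DESeq2. After adjustment DESeq2 called 0 higher. Only *Mrps35* was called with all 3 replicates, beside 2.01%. With the replicate number in the fit 8 were lower, beside 13.5% of all genes tested, and 1 (*Mrps24*) was higher, beside 14.1%. Over all 3 replicates with their number in the fit 10 were lower, beside 16.5%, and *Mrps31* was higher (log2 fold change 0.25, edgeR adjusted p = 0.0071), beside 17.0%. The median over the 29 genes was -0.15, and 21 were negative, against a median of 0.01 over all genes.

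Against the 4OHT control the KO was lower in *Mrps31* (log2 fold change -1.33, SE 0.10, edgeR adjusted p = 2.7e-06) and in *Mrps34* (-1.06, SE 0.17, edgeR adjusted p = 0.0013). Both were also called with all 3 replicates (edgeR adjusted p = 0.00020 and 0.025), beside 3.72% of all genes lower. The KO was higher in *Mrps35* (0.69, SE 0.09), *Mrps26* (0.39, SE 0.11) and *Mrps17* (0.29, SE 0.07), with edgeR adjusted p of 0.00040, 0.032 and 0.015. This made 2 of 29 lower, beside 10.3% of all genes tested, and 3 of 29 higher, beside 8.38%. With the replicate number in the fit 7 were lower, beside 15.7%, and 5 higher, beside 13.7%, and *Mrps27* and *Mrps18c* were then among the lower (edgeR adjusted p = 0.017 for each). With all 3 replicates 1 gene, *Mrps35*, was higher, beside 2.73%. With the replicate number and all 3 replicates 4 were lower, beside 18.1%, and 10 higher, beside 16.9%. *Mrps27* and *Mrps18c* were not among these lower genes, and *Mrps16*, *Mrps12*, *Mrps18b* and *Mrps21* were among the higher (log2 fold changes of 0.26, 0.19, 0.17 and 0.26, edgeR adjusted p = 0.0043, 0.046, 0.049 and 0.046). Both comparisons above share the 4OHT control libraries, so their values are not independent of each other. The plot of fold changes sets the 3 comparisons side by side.

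**Figure D3:**
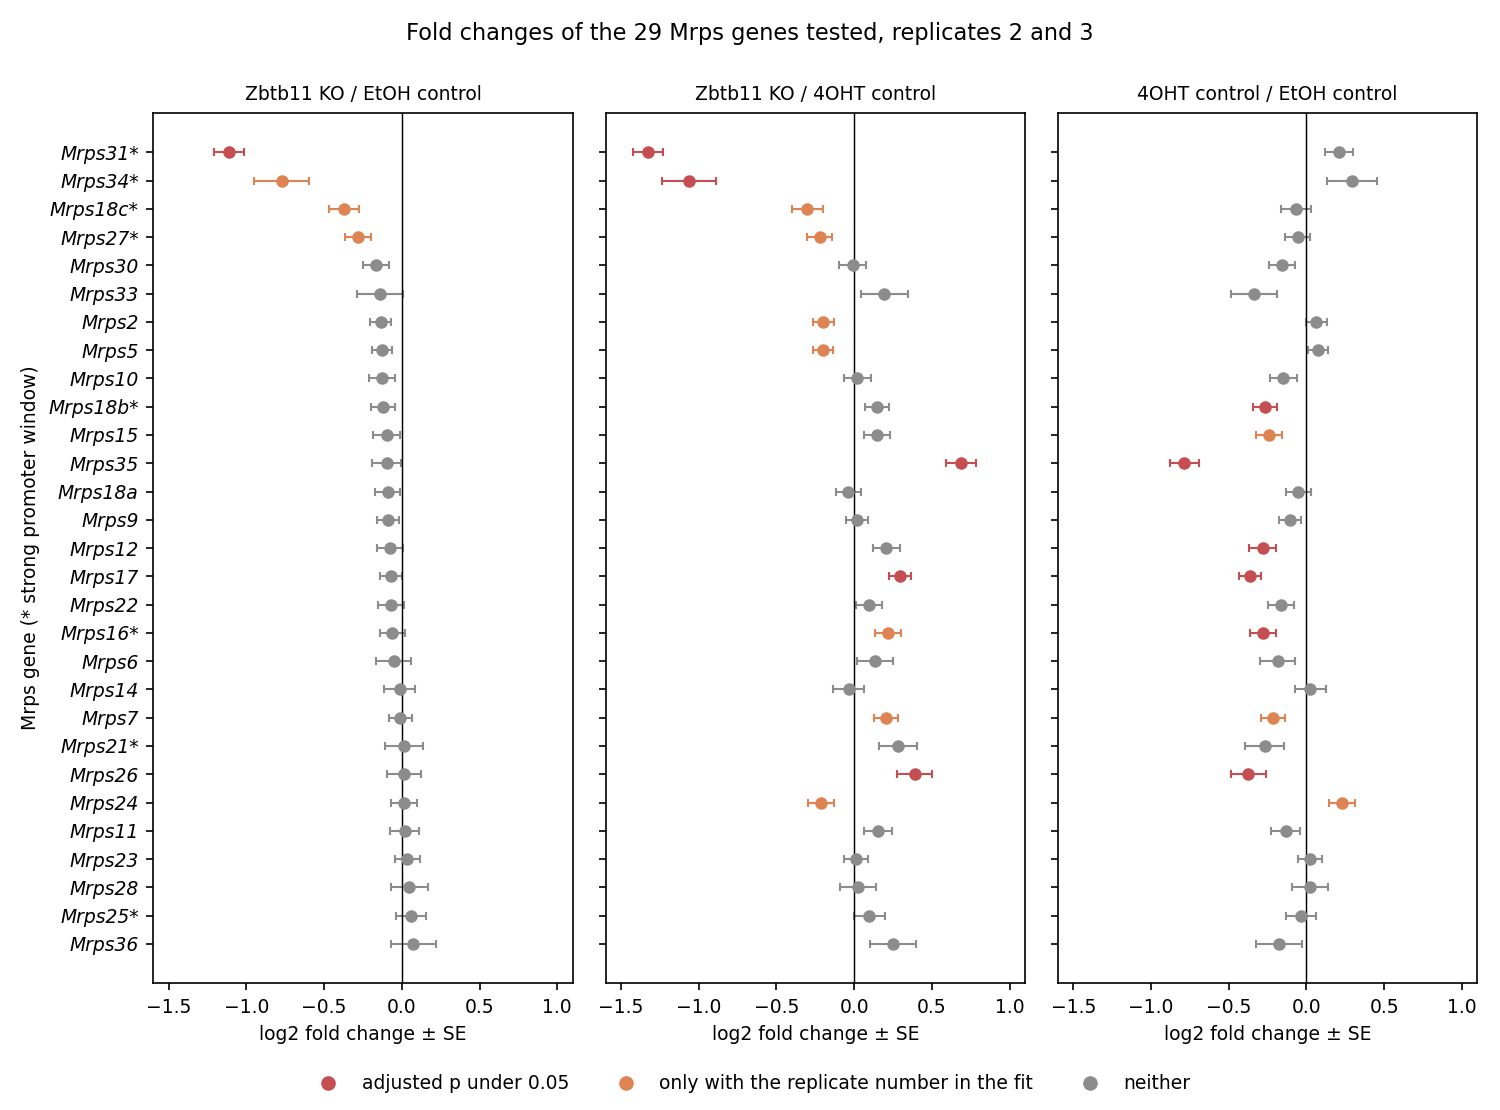
Log2 fold change (points) and SE (bars) of the 29 *Mrps* genes tested in the 3 comparisons of replicates 2 and 3, ordered by the KO over the EtOH control; red marks an adjusted p under 0.05, orange one reached only with the replicate number in the fit, and an asterisk a strong promoter window. *Mrps31* and *Mrps34* stand at -1.11 and -0.77 on the left and at -1.33 and -1.06 in the middle, while *Mrps35* stands at 0.69 in the middle and -0.79 on the right.

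**Figure D4:**
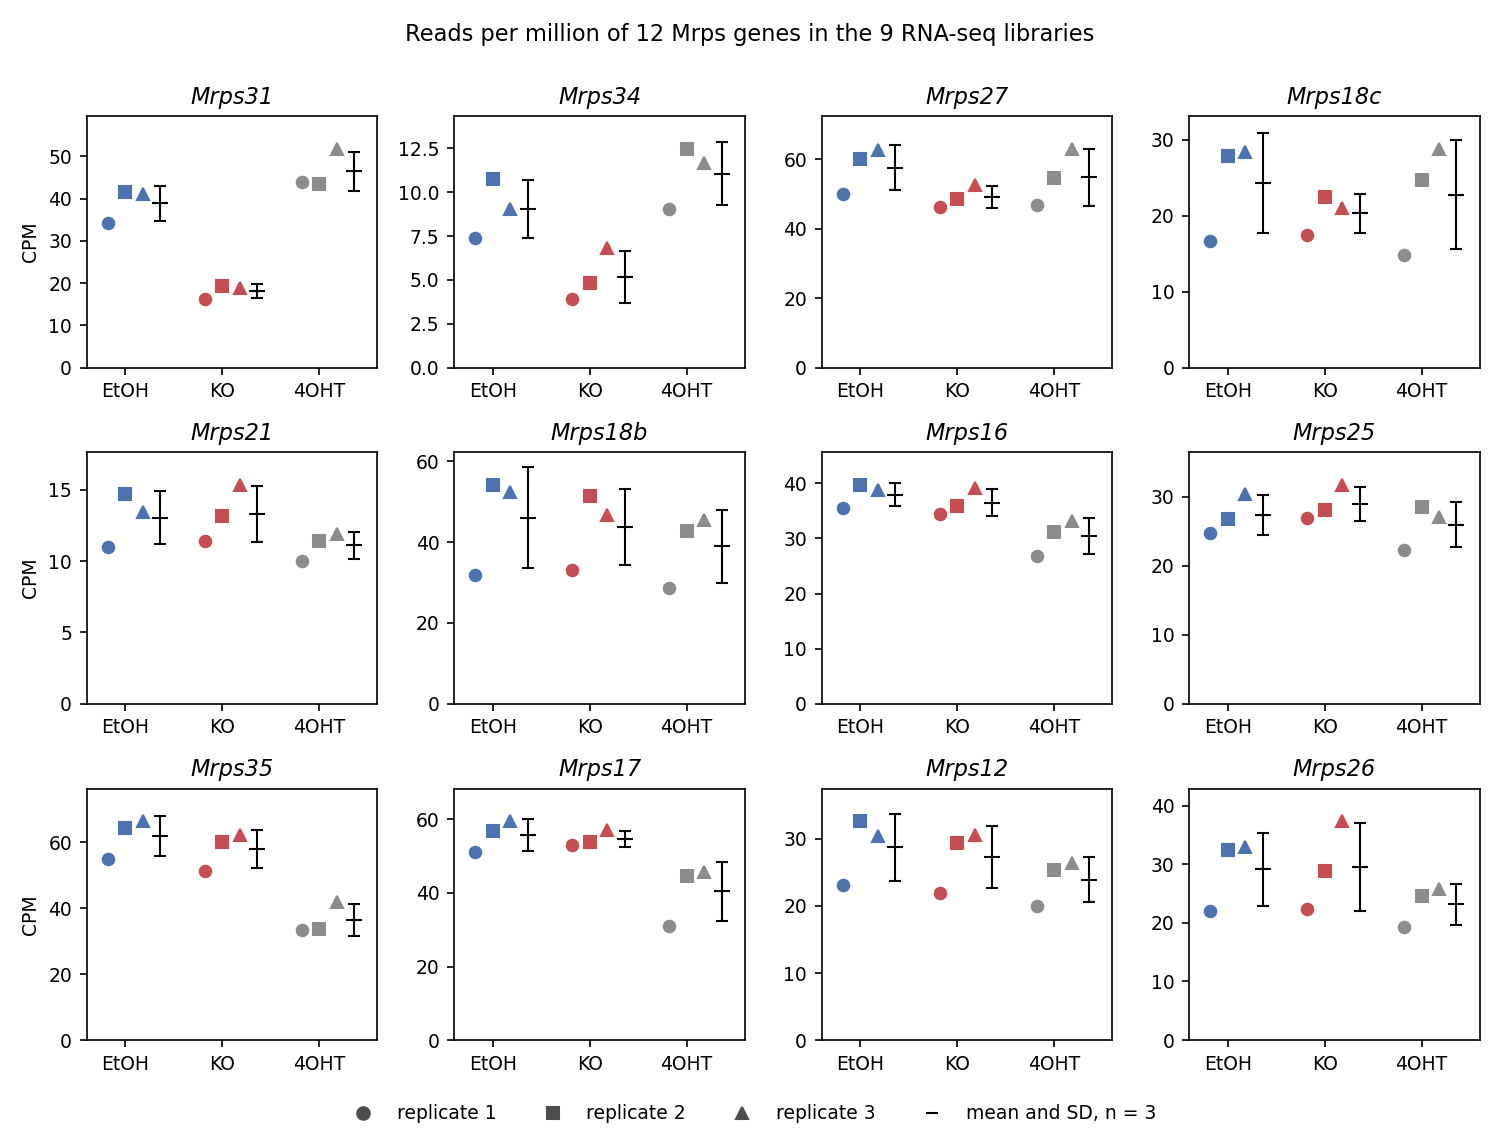
CPM (linear axis from 0) of the 12 *Mrps* genes named by the rule in each of the 9 libraries, by group, with the mean and SD of 3 libraries beside them. KO libraries of *Mrps31* and *Mrps34* lie under all controls, 4OHT control libraries of *Mrps35* and *Mrps17* lie under the other groups, and replicate 1 (circles) is often the lowest of its group.

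Levels were compared between genes as CPM per kilobase of merged exons in the EtOH control. They ran from 67.0 ± 3.81 (SD, n = 3) at *Mrps16* to 4.16 ± 0.44 at *Mrps25*, a 16.1-fold range with a median of 22.1. *Mrps30*, at 48.7 ± 3.65, and *Mrps7*, at 34.0 ± 5.74, followed *Mrps16*, while *Mrps34* was second from the end at 4.39 ± 0.81. Of the 28 pairs of neighbours in this order only 4 were separated in all libraries, so most of the order lay within the spread. The record of *Mrps25* has 6576 exon bases, of which 3533 are shared with *Nr2c2* on the other strand, and that of *Mrps16* has 566. The order and the range depend on this divisor, and merged exons need not have the length of the mRNA. Without it, *Mrps16* was at 37.9 CPM in the EtOH control. *Mrps10*, which has 8079 exon bases and ranked 27 per kilobase, was at 42.8 CPM. The 2 records with a pseudogene suffix, of which *Mrps36-ps1* is annotated as protein coding, were at or below 0.339 CPM in every library and were not tested.

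Besides the *Mrps* genes, 17 other genes of the small subunit were found in the annotation. The proteins without the *Mrps* name are encoded by *Dap3*, *Ptcd3*, *Chchd1* and *Aurkaip1*. Between the KO and the EtOH control 0 of these 4 genes were called in each of the 4 edgeR fits. These fits called 0.843 to 1.85% of all genes tested lower and at most 0.46% higher, so 0 of 4 cannot be told apart from these shares. The lowest edgeR adjusted p in the 4 fits was 0.64 at *Ptcd3*. *Aurkaip1* had a strong promoter window (669 ± 175, SD, n = 4, rank 237) and a log2 fold change of -0.03. Among 12 genes of assembly, rRNA modification and initiation tested, 1 was lower, beside 1.35% of all genes, and 0 were higher, beside 0.148%. In the fit of all 3 replicates with their number 1 was lower and 1 (*Mtif2*) higher, beside 1.79 and 0.46%. The lower gene was *Mettl15*, a methyltransferase of the 12S rRNA, which was at 5.53, 4.96 and 6.06 CPM in the EtOH control, at 1.98, 1.84 and 2.04 CPM in the KO and at 5.70, 5.06 and 4.71 CPM in the 4OHT control. Its log2 fold change was -1.50 (edgeR adjusted p = 0.0012), with no window of the coverage table at its annotated promoter. *Mtif2*, the initiation factor that places the first tRNA, had a strong window (732 ± 195, rank 147) and a log2 fold change of 0.22 (edgeR adjusted p = 0.54). Its levels were 73.6, 79.4 and 82.3 CPM in the EtOH control and 90.1, 87.3 and 101 CPM in the KO, which is 122, 110 and 122% of the EtOH control of the same number. The call depended on the fit, since *Mtif2* rose with the replicate number and all 3 replicates (log2 fold change 0.24, SE 0.06, edgeR adjusted p = 0.026) but did not pass with the replicate number over replicates 2 and 3 (edgeR adjusted p = 0.11). *Mterfd2*, *Mettl17* and the rRNA methyltransferase gene *Nsun4* also had strong windows (655, 671 and 390.5) and log2 fold changes of -0.16, 0.02 and -0.25, none past the test in any of the 4 fits. The 12S rRNA gene *mt-Rnr1* was not called (log2 fold change -0.16, edgeR adjusted p = 0.95), in libraries from which rRNA had been depleted.

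In the most similar families, 7 of 46 *Mrpl* genes were lower in the KO than in the EtOH control, beside 1.35% of all genes tested. Of these *Mrpl* genes 0 were higher, beside 0.148%, and their median log2 fold change was -0.05. With the replicate number in the fit 9 were lower, beside 1.85%. Of 45 *Rps* genes 1 was lower and 0 were higher, beside the same 1.35 and 0.148%, with a median of 0.01. Differences between these counts and the 1 (or 4 with the replicate number) of 29 *Mrps* genes were not tested.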

How the data were processed

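Gene counts were used as deposited. The authors aligned trimmed paired-end reads of directional, rRNA-depleted libraries with STAR and counted them with HTSeq. The strand setting was not given in the sources used here. The coverage (signal) values are as deposited: the authors aligned reads to mm9 with Bowtie 1.1.2, called peaks with MACS2 over all replicates of a ChIP and normalized coverage between libraries with DiffBind. Input libraries were not analysed here.

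Counts were tested with edgeR 4.0.16 in R 4.3.3 (TMM, quasi-likelihood F test, two-sided, 3 groups in one fit), keeping genes above 1 CPM in 2 or more libraries. P-values were adjusted over all genes tested by the Benjamini-Hochberg method, and 0.05 was the threshold. The main tests used replicates 2 and 3, after the study, which left out the distant replicate. SE is the log2 fold change divided by the square root of F. The code was tested on simulated data.

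The replicate number was checked as a pairing: for same-numbered libraries, the correlation of deviations from the group means ranged from 0.43 to 0.82. By the rule that every such correlation exceed 0.1 they were treated as pairs. Within replicates 2 and 3 the same-numbered range was 0.43 to 0.68 and the differently numbered range 0.29 to 0.53. Libraries of replicate 1 correlated with those of other numbers at -0.75 to -0.48. Each group mean included replicate 1, so deviations of replicates 2 and 3 tended to share a sign whatever their number. The differently numbered libraries of replicates 2 and 3 also exceeded 0.1. The rule therefore cannot show that these 2 replicates are paired by number. Results of the blocked fits are given as counts and for the genes named. CPM of single genes are on one TMM scale over all 9 libraries. CPM of the cell type markers were scaled by library size alone.

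Members and lists were chosen with earlier results of these data known. Members named are those with an adjusted p under 0.05 in any comparison (replicates 2 and 3, or all 3), those with a strong window, and the highest and lowest per kilobase. Neighbours and the 2 related families were also named by rule. *Noa1* and *Mterf4* have no record by that name, and *Mterfd2* is an older name of the latter. Sequence was read from mm9 and GENCODE vM1 starts. Of 23 samples in the series, 9 RNA-seq and 7 ChIP-seq libraries gave values by library. The depth of the coverage values is unknown.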

Additional observations from a re-analysis of the deposited data

How the results depend on the processing

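The count of *Mrps* genes called between the KO and the EtOH control was 1. It was 4 with the replicate block over replicates 2 and 3, beside 1.85% of all genes lower and 0.423% higher. With the replicate block over all 3 replicates it was 2, beside 1.79 and 0.46%. DESeq2, no filter on low counts and only the 2 groups compared gave 2 each. Without replicate 2 or without replicate 3 edgeR gave 0, where 1 and 2 genes had an unadjusted p under 0.05. Against the 4OHT control the KO gave 5. This became 3 with all 3 replicates, beside 3.72% of all genes lower and 2.73% higher. The replicate block over replicates 2 and 3 gave 12 (7 lower, 5 higher), beside 15.7 and 13.7%. The replicate block over all 3 gave 14 (4 lower, 10 higher), a fit that called 18.1% of all genes lower and 16.9% higher. The count was 3 at an adjusted p under 0.01, and 1 without replicate 2 or 3. Between the 4OHT and EtOH controls the count was 6. It was 1 with all 3 replicates, 11 (10 lower, 1 higher, beside 16.5 and 17.0% of all genes) with the replicate block over all 3, 2 with DESeq2, 3 with no filter, 2 at an adjusted p under 0.01 and 0 without replicate 2 or 3 (1 and 3 at an unadjusted p under 0.05). The fits without replicate 2 or 3 keep the distant replicate 1. The cause of the other differences was not tested. Where no share of all genes is given, a count cannot be set against how many genes that fit called. Library sizes in place of TMM shifted the median of all genes by at most 0.05.

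Strong windows numbered 8, and 5 with the FLAG-Zbtb11 libraries or with all 7 libraries; leaving out 1 Zbtb11 antibody replicate gave 6 to 8. Windows at 16 promoters became peaks at 18 with all Zbtb11 antibody peaks, and also at 18, not all the same, with all FLAG-Zbtb11 peaks. Over 36 fold changes and 9 alternatives, 266 of 324 kept direction and call, 39 lost and 16 gained the call. The 3 that changed sign were small and never called. Without replicate 2 or 3, *Mrps18c* against the 4OHT control ranged from -0.19 to 0.0099, *Mrps21* against the EtOH control from -0.068 to 0.13, and *Mrps26* against the EtOH control from -0.088 to 0.12.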

Other observations

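The 13 *Mrps* genes without a window of the coverage table differed in how far the nearest one was. It lay 13171 bases from the start of *Mrps36*, 14283 from *Mrps14* and 1040618 from *Mrps30*. *Mrps15* and *Mrps33* had a peak of the Zbtb11 antibody alone at their promoter, and *Mrps6* and *Mrps24* one of FLAG-Zbtb11 alone.

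Exons of several *Mrps* genes overlap those of another gene. A read on both can be set aside as ambiguous and counted for neither gene. Ambiguous reads made up 0.790 to 0.905% of a library. On the same strand *Mrps6* shares 696 of 1590 exon bases with *Slc5a3* and *Mrps24* shares 226 of 1466 with *Urgcp*. On the other strand *Mrps18b* shares 638 of 2089 and *Mrps27* 417 of 1848 with non-coding genes, and *Mrps7* and *Mrps11* share 246 and 173 bases. Near-identical stretches elsewhere in the genome (at least 95% identity over 100 bases) reached 547 of the 566 exon bases of *Mrps16*, 706 bases of *Mrps18b*, 2072 of *Mrps25* and 572 of *Mrps36*. The number of such stretches was highest for *Mrps10* (11320), *Mrps26* (4103), *Mrps14* (1236) and *Mrps18c* (187). The longest of these had 688, 585, 535 and 190 bases. *Mrps31*, *Mrps34*, *Mrps27* and *Mrps35* had none. How reads with 2 matches were counted is not given in the sources used here.

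None of the 16 *Mrps* windows had an outlying value among its 4 Zbtb11 antibody libraries by Dixon's test.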
